A study of Mus musculus with 11 samples.

Results

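Matrix metalloproteases, ADAMTS proteases and their tissue inhibitors were followed in mouse embryonic fibroblasts (MEFs) in which either p53 or the p53-induced lincRNA Pint had been knocked down. The genes were taken by name, as every probe set whose only gene symbol in the platform annotation begins with Mmp and a digit or with Adamts, or is Timp1, Timp2, Timp3 or Timp4. This gave 74 of 34760 probe sets, for 49 of the 19937 genes named in that way: 22 Mmp genes, 18 Adamts genes, 5 Adamts-like genes and 4 Timp genes. The rule uses names and no expression value.

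All cells were p53LSL/LSL MEFs of mixed C57BL/6 and 129/SvJ background, in which a removable stop cassette silences the p53 gene. All of them received AdenoCre (multiplicity of infection 5, 24 h), which restores p53, then an oligonucleotide, and after a further 24 h the DNA-damaging drug doxorubicin (150 nM, 12 h). The groups were control siRNA with 3 arrays, p53 siRNA with 3 arrays, control ASO with 2 arrays and Pint ASO with 3 arrays, where ASO stands for antisense oligonucleotide. Every group analysed here received both Cre and doxorubicin, so every difference is one between p53-restored, damaged cells. The Pint ASO was a pool of oligonucleotides. The labels do not say that replicates came from separate cultures, and p-values then measure only the spread between these arrays. RNA levels are log2 RMA values, an intensity scale on which a step of 1 is a doubling. They compare one probe set between arrays and do not rank genes by abundance. A value of 6 (64 on the linear scale) served as the floor, and a gene was tested when it lay above 6 in 2 or more arrays of any group.

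Matrix metalloproteases are zinc endopeptidases that cells secrete or anchor in the plasma membrane as inactive proenzymes, and that cut collagens, gelatin, laminin, growth factors and cell surface proteins once the propeptide is removed. ADAMTS proteases are secreted relatives with thrombospondin repeats that hold them in the matrix, where they cut large proteoglycans such as aggrecan and versican or trim procollagens. ADAMTS-like proteins carry the same repeats but no protease domain. TIMPs occupy the active site of these enzymes and block them, and Timp3, which itself binds to the matrix, is the TIMP that acts best on the ADAMTS aggrecanases. Many of these genes are expressed by fibroblasts, which both build and remodel connective tissue, and several are classical targets of the AP-1 transcription factors (Fos and Jun dimers).

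The collagenase genes and both stromelysin genes Mmp3 and Mmp10 lie together on mouse chromosome 9. In RefSeq (GRCm38.p6) the stretch chr9:7272514-7699585, 427 kb long, holds 10 protein-coding genes, and all 10 are metalloproteases, in the order Mmp13, Mmp12, Mmp1b, Mmp3, Mmp1a, Mmp10, Mmp8, Mmp27, Mmp20 and Mmp7. The AP-1 site TGANTCA, which reads the same on both strands, was searched in the 250 bases before the start in each promoter window. A gene was counted when any of its windows held the site. It was found for 8 of these 10 genes, all but Mmp8 and Mmp27, and for 0 of the 24 other genes of the families that had a promoter window. For Mmp12 it lay only in the window of a second start inside the gene (chr9:7347124-7347423), and not before the gene start itself. Over the genome it was found for 7.82% of 27025 genes and in 6.75% of 32851 windows. Only 34 of the 49 genes had a window, and Mmp2, Mmp9, Mmp19, Adamts4 and Adamts5 were among those without one. The 120 bases before the start of 4 cluster genes are shown on the plus strand, the strand of the genes. Mmp13 and Mmp10 were taken as the pair that moved oppositely in the knockdowns. Mmp1a was taken because it fell with p53 siRNA alone, and Mmp3 because it passed the test in neither. Capitals mark the AP-1 letters, which begin 35 bases before the start in Mmp13, 63 in Mmp10, 46 in Mmp3 and 73 in Mmp1a. The windows are chr9:7272394-7272513, chr9:7502222-7502341, chr9:7445702-7445821 and chr9:7464021-7464140 in the same order. A match is a description of the letters and says nothing of binding in these cells.
Mmp13: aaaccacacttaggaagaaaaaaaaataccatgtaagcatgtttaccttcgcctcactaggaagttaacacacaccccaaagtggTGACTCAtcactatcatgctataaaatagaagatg
Mmp10: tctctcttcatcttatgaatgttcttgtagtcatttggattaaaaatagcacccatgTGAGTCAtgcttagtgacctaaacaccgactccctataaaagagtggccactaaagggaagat
Mmp3: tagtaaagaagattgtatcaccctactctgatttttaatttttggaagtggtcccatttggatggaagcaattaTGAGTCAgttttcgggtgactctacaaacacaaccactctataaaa
Mmp1a: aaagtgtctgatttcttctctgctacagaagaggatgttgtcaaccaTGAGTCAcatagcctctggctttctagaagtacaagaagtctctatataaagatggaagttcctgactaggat

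Most of the genes were measurable. Of the 49 genes, 46 were tested and 41 exceeded log2 6 in all 11 arrays. Mmp1b, Adamts20 and Timp4 did not pass the filter. Mmp1b and Timp4 were at or under 6 in all 11 arrays, and Adamts20 in 9 of them. Among tested genes, Mmp8 and Mmp20 were at or under 6 in 7 arrays each, Mmp21 and Mmp27 in 2 each and Mmp1a in 1, so their values sit at the edge of the measurable range. As a check of the cells, all 10 fibroblast markers on the list used were tested, and 9 of them exceeded 6 in all arrays. Some markers of other cell types exceeded 6 too, which alone does not show that such cells were present. Above 6 in all arrays were 5 of 6 epithelial markers, 2 of 6 of macrophages and blood, 4 of 5 of endothelium and 5 of 5 of smooth muscle. Of the markers with a named probe set, so were 4 of 5 of cartilage and bone, 3 of 4 of adipocytes and 4 of 4 of neural cells. Cdh1 (8.59), Cd68 (10.46), Kdr (7.06) and Acta2 (14.05) are examples, as means in control siRNA. The value of Kdr lies under the array medians, which were 7.31 to 7.38. Epcam, Ptprc, Adgre1 and Emcn stayed at 6 or lower throughout. The Pint probe set (Lncpint) was lower with Pint ASO by 1.78 ± 0.12 on the log2 scale (adjusted p = 2.94e-05). It was also lower with p53 siRNA, at 68.7% of control (adjusted p = 0.00673), and control ASO lay above control siRNA by 0.71 ± 0.12 (adjusted p = 0.0137). Mdm2, a direct p53 target, was at 51.4% of control with p53 siRNA.

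Knockdown of p53 lowered 3 of the 9 tested proteases of the chromosome 9 cluster and raised most of the tested proteoglycan-cutting ADAMTS enzymes. With p53 siRNA 14 of 46 genes passed the test, 10 higher and 4 lower, against 21.3% of all 16147 genes tested (10.6% higher and 10.6% lower). The median change was 0.08 over these genes and 0.023 over all genes. The genes that fell were Mmp10, Mmp13, Mmp1a and Mmp28, and 4 of the 6 tested hyalectanases (Adamts1, Adamts4, Adamts5 and Adamts9) rose. No Timp gene passed the test, and none reached an unadjusted p under 0.05 either. The arrays of the groups did not overlap for 27 of the 46 genes, where 41.9% of all genes did not.

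Knockdown of Pint moved several of the same proteases the other way and lowered inhibitors as well. With Pint ASO 19 of 46 genes passed the test, 4 higher and 15 lower, against 25.2% of all genes (11.3% higher and 13.9% lower). The median change was -0.03, and 0.012 over all genes. Higher genes were Mmp13, Mmp25, Mmp10 and Adamts6. The lower ones included Mmp19, Adamtsl4, Timp3, Mmp16, Mmp2 and Mmp14. Of the 3 TIMPs tested, Timp2 and Timp3 fell. The groups did not overlap for 27 genes, where 46.5% of all genes did not.

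Fibroblast markers moved with the knockdowns as well. Of the 10 on the list, 5 rose with p53 siRNA and 8 fell with Pint ASO, with medians of 0.23 and -0.48. Of all genes, 10.6% rose with p53 siRNA and 13.9% fell with Pint ASO. Their summed linear level was 60800 to 62200 in control siRNA, 69200 to 69600 in p53 siRNA, 58200 to 58400 in control ASO and 46500 to 48200 in Pint ASO arrays. Col1a1 changed by 0.32 ± 0.04 and -0.62 ± 0.05, and Vim, the mesenchymal filament protein, by -0.06 ± 0.04 and -0.00 ± 0.04. The part of this shift in the protease and inhibitor results was not tested, and in bulk RNA fewer cells of a kind and less RNA per cell cannot be told apart.

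**Figure D1:**
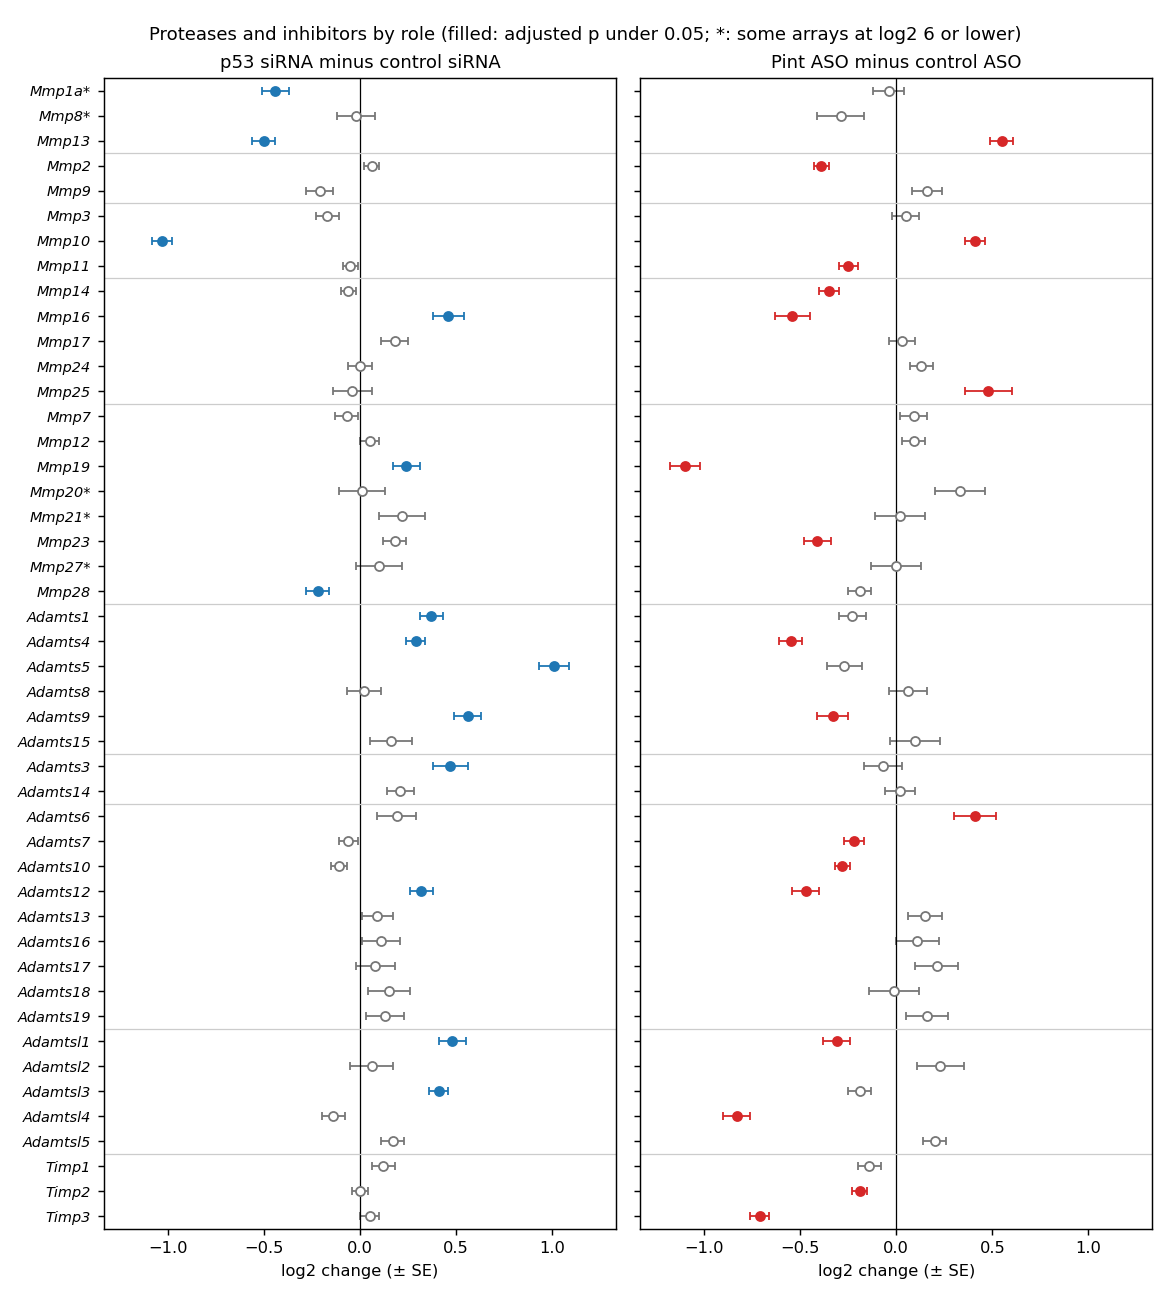
Log2 change with its standard error for the 46 tested genes with p53 siRNA (left) and Pint ASO (right), each against its own control, ordered from collagenases at the top through gelatinases, stromelysins, membrane-type and other MMPs, hyalectanases, procollagen N-propeptidases, other ADAMTS and ADAMTS-like proteins to the inhibitors, with grey lines between roles. Filled points passed the test, 14 on the left and 19 on the right, and an asterisk marks genes with arrays at log2 6 or lower.

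The collagenases cut fibrillar collagen. Mmp13, collagenase 3, was 12.40, 12.35 and 12.41 in control siRNA and 12.00, 11.82 and 11.85 in p53 siRNA arrays. Levels were 12.37 and 12.32 in control ASO and 12.94, 12.90 and 12.85 in Pint ASO arrays. All p53 siRNA arrays thus lay under, and all Pint ASO arrays over, every control array. The log2 change was -0.50 ± 0.06 with p53 siRNA (adjusted p = 0.000278) and 0.55 ± 0.06 with Pint ASO (adjusted p = 0.00041). The difference between these effects was 1.05 ± 0.09 (adjusted p = 4.86e-05).

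Mmp1a, a mouse counterpart of the human interstitial collagenase, was close to the floor, at 6.53, 6.57 and 6.40 in control siRNA and 6.16, 6.03 and 5.99 in p53 siRNA arrays. It fell by 0.44 ± 0.07 with p53 siRNA (adjusted p = 0.0022). The Pint ASO arrays were at 6.54, 6.59 and 6.50 and the control ASO arrays at 6.68 and 6.50, and these overlap. The difference of the effects was 0.40 ± 0.11 (adjusted p = 0.0293), a call that was lost on leaving out control siRNA 1 or 2, p53 siRNA 2 or 3, control ASO 2 or Pint ASO 1 or 2 (adjusted p up to 0.118). Mmp8, the neutrophil collagenase, was between 5.34 and 6.18 and passed the test in neither knockdown.

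Stromelysins cut proteoglycans, laminin and fibronectin and help to activate other MMPs. Mmp10, stromelysin 2, had the largest fall of all 46 genes with p53 siRNA. It was 11.04, 10.98 and 10.99 in control siRNA and 10.02, 9.95 and 9.94 in p53 siRNA arrays, a log2 change of -1.03 ± 0.05 (adjusted p = 1.75e-06), or 48.8% of control. With Pint ASO it was 11.46, 11.45 and 11.34 beside 11.01 and 10.99 in control ASO, a change of 0.41 ± 0.05 (adjusted p = 0.000753). The difference of the effects was 1.44 ± 0.07 (adjusted p = 4.53e-06), also the largest of the 46 in size.

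Mmp3, stromelysin 1, lies in the same cluster but differed between the control groups. It was 12.95, 12.92 and 12.91 in control siRNA and 12.54 and 12.60 in control ASO, a difference of -0.36 ± 0.07 (adjusted p = 0.018). With p53 siRNA it was 12.79, 12.71 and 12.78, lower than all control siRNA arrays, but the change of -0.17 ± 0.06 did not pass the test (adjusted p = 0.0836). Leaving out Pint ASO 3 took it past the threshold (adjusted p = 0.0288). The Pint ASO arrays, at 12.67, 12.69 and 12.49, lay on both sides of their controls. Mmp11, stromelysin 3, whose gene lies on chromosome 10, fell by 0.25 ± 0.05 with Pint ASO (adjusted p = 0.00431).

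**Figure D2:**
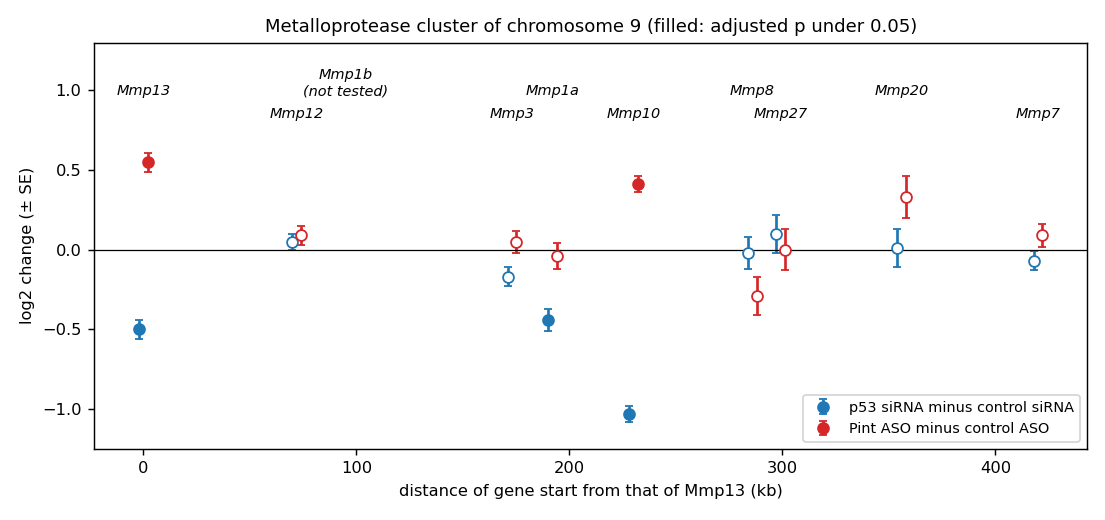
Log2 change with its standard error for the metalloprotease cluster of chromosome 9, by the distance of each gene start from that of Mmp13 in kb, for p53 siRNA (blue) and Pint ASO (red) against their own controls. Filled points passed the test: 3 of the 9 tested genes were lower with p53 siRNA and 2 were higher with Pint ASO, and Mmp1b was not tested.

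Of the 9 tested genes of the cluster, Mmp13, Mmp1a and Mmp10 fell with p53 siRNA, Mmp13 and Mmp10 rose with Pint ASO, and no gene of the cluster rose with p53 siRNA or fell with Pint ASO. Mmp12, the macrophage elastase, was between 6.17 and 6.43 in all arrays, and Mmp7, matrilysin, between 6.00 and 6.22. Neither passed the test in either knockdown, nor did Mmp8, Mmp20 or Mmp27, which are all near the floor.

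Values of AP-1 and ETS factors, which are known to act on these promoters, were read beside the cluster. Of 11 such genes tested, 7 rose with Pint ASO (Fos 0.59, Fosb 0.49, Fosl1 0.38, Fosl2 0.41, Junb 0.71, Ets1 0.62 and Ets2 0.31 on the log2 scale) and none fell. With p53 siRNA 3 fell (Fosl1 by 0.32, Ets1 by 0.38 and Etv4 by 0.55 on the log2 scale) and none rose. The medians were 0.38 and -0.08. Of all genes, 11.3% were higher with Pint ASO and 10.6% lower with p53 siRNA. The control ASO arrays stood above the control siRNA arrays for Fosl1, Junb and Ets1 (0.29, 0.34 and 0.31, all past the test). Of all genes, 4.81% passed between the controls in either direction. The part of these factors in the levels of Mmp10 and Mmp13 was not tested.

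The gelatinases cut denatured and basement membrane collagen. Mmp2, gelatinase A, was 12.68, 12.71 and 12.71 in Pint ASO arrays beside 13.08 and 13.10 in control ASO, a change of -0.39 ± 0.04 (adjusted p = 0.00042). With p53 siRNA it was 13.24, 13.16 and 13.21 beside 13.14, 13.17 and 13.12, and these overlap. Mmp9, gelatinase B, was 8.38, 8.53 and 8.50 with p53 siRNA beside 8.79, 8.61 and 8.65, and 8.59, 8.75 and 8.71 with Pint ASO beside 8.58 and 8.48. Neither change of Mmp9 passed the test (adjusted p = 0.0649 and 0.203), while the difference between them, 0.37 ± 0.10, did (adjusted p = 0.0336). That call was lost without control siRNA 1 or 3, p53 siRNA 1 or 3, control ASO 2 or Pint ASO 2 or 3 (adjusted p up to 0.122).

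On the cell surface Mmp14 (MT1-MMP) activates proMmp2 in a complex that also needs Timp2, so the levels of these 3 genes were set side by side. All 3 fell with Pint ASO, and none passed the test with p53 siRNA. Mmp14 was 11.77, 11.80 and 11.73 with Pint ASO beside 12.10 and 12.14, a change of -0.35 ± 0.05 (adjusted p = 0.000882), and Mmp2 was at 76.5% and Mmp14 at 78.5% of control. Timp2 was 13.26, 13.29 and 13.23 with Pint ASO beside 13.44 and 13.47, a change of -0.19 ± 0.04 (adjusted p = 0.0118), or 87.4% of control. This smaller change of Timp2 lost its call without control ASO 2, and also when only the ASO arrays were fitted (adjusted p = 0.122).

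Among the other membrane-type enzymes Mmp16 (MT3-MMP) moved both ways. It was 9.84, 9.90 and 9.79 with p53 siRNA beside 9.32, 9.34 and 9.50, a change of 0.46 ± 0.08 (adjusted p = 0.00262). Pint ASO arrays were at 8.77, 8.76 and 8.55 beside 9.30 and 9.17, a change of -0.54 ± 0.09 (adjusted p = 0.00217). Mmp25, a GPI-anchored enzyme of leukocytes, was close to the floor and rose from 6.10 and 6.35 to 6.77, 6.47 and 6.87 with Pint ASO. The change of 0.48 ± 0.12 (adjusted p = 0.0183) lost its call without control ASO 1 or Pint ASO 1 or 3 (adjusted p up to 0.143). Mmp17 and Mmp24 passed the test in neither knockdown.

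Mmp19, a secreted enzyme without a close relative among the MMPs, had the largest fall of the 46 genes with Pint ASO. Its gene is on another chromosome, at chr10:128790910-128800827. It was 9.09, 9.26 and 9.0 in Pint ASO arrays and 10.20 and 10.24 in control ASO arrays, a change of -1.10 ± 0.08 (adjusted p = 3.66e-05), or 46.6% of control. With p53 siRNA it was 10.89, 10.91 and 10.88 beside 10.62, 10.58 and 10.74, a change of 0.24 ± 0.07 (adjusted p = 0.0398). This last call was lost without control siRNA 1 or 2, any of the 3 p53 siRNA arrays, either control ASO array, or Pint ASO 1 (adjusted p up to 0.123). The control groups differed too, by -0.43 ± 0.08 (adjusted p = 0.0178), and the effects of the knockdowns differed by -1.35 ± 0.10 (adjusted p = 3.69e-05).

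Other MMPs moved less. Mmp23, a type II membrane protein, fell by 0.41 ± 0.07 with Pint ASO (adjusted p = 0.00291). Mmp28, epilysin, was 8.53, 8.45 and 8.56 with p53 siRNA beside 8.76, 8.80 and 8.64, and fell by 0.22 ± 0.06 (adjusted p = 0.0301). The call for Mmp28 was lost without control siRNA 1 or 2 or any of the 3 p53 siRNA arrays (adjusted p up to 0.107). Mmp21, between 5.98 and 6.58, passed the test in neither knockdown.

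The hyalectanases are the ADAMTS enzymes that cut aggrecan, versican and related proteoglycans. Adamts5, the main aggrecanase of mouse cartilage, had the largest rise with p53 siRNA among the 46 genes. It was 10.01, 10.07 and 10.02 beside 9.05, 8.94 and 9.06 in control siRNA, a change of 1.01 ± 0.08 (adjusted p = 2.52e-05), or 2.02-fold. Pint ASO arrays were lower, at 8.57, 8.75 and 8.47 beside 8.95 and 8.78, but the change of -0.27 ± 0.09 did not pass the test (adjusted p = 0.0615). The p53 siRNA arrays stood almost a full log2 step above all others.

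Adamts4, the other classical aggrecanase, was 9.07 in each control siRNA array and 9.29, 9.32 and 9.46 with p53 siRNA, a change of 0.29 ± 0.05 (adjusted p = 0.0052). Under Pint ASO it stood at 8.48, 8.56 and 8.52 beside 9.02 and 9.12, a change of -0.55 ± 0.06 (adjusted p = 0.000323). Adamts1, a versicanase, was 10.41, 10.46 and 10.41 with p53 siRNA beside 10.07, 9.99 and 10.11, a change of 0.37 ± 0.06 (adjusted p = 0.00371). With Pint ASO it was 9.65, 9.80 and 9.61 beside 9.99 and 9.84 and did not pass the test (adjusted p = 0.0553). Adamts8 and Adamts15 passed it in neither.

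Adamts9, which acts on versican and aggrecan, has 6 probe sets. The one with the highest mean was 10.33, 10.26 and 10.19 with p53 siRNA beside 9.76, 9.67 and 9.67, a change of 0.56 ± 0.07 (adjusted p = 0.000427). Under Pint ASO it stood at 9.0, 8.97 and 9.11 beside 9.25 and 9.46, a change of -0.33 ± 0.08 (adjusted p = 0.0143) that was lost without control ASO 2 (adjusted p = 0.106). All 6 probe sets rose with p53 siRNA, by 0.43 to 0.59, where 7.97% of all probe sets tested did, and 4 of 6 fell with Pint ASO (range -0.42 to 0.04), where 10.7% did. The control groups also differed here, by -0.34 ± 0.08 (adjusted p = 0.0422).

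Adamts3 trims the propeptide of procollagen and is represented by 16 probe sets, of which 14 were tested. The highest was 8.57, 8.69 and 8.59 with p53 siRNA beside 8.21, 8.08 and 8.15, a change of 0.47 ± 0.09 (adjusted p = 0.00478), and 13 of the 14 rose. The changes of all 14 ran from 0.19, the probe set that did not pass, to 0.84. With Pint ASO the highest probe set was 8.04, 7.80 and 7.70 beside 7.84 and 7.99 and did not pass the test (adjusted p = 0.702). All 14 changes were negative with Pint ASO, from -0.60 to -0.04, and 4 passed. Probe sets of one gene share their RNA and are not replicates. Averaged over its probe sets, Adamts3 was lower with Pint ASO (change -0.29, adjusted p = 0.0089). Adamts14, of the same role, was 8.32, 8.42 and 8.38 with p53 siRNA beside 8.07, 8.17 and 8.24 and did not pass the test (adjusted p = 0.089).

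**Figure D3:**
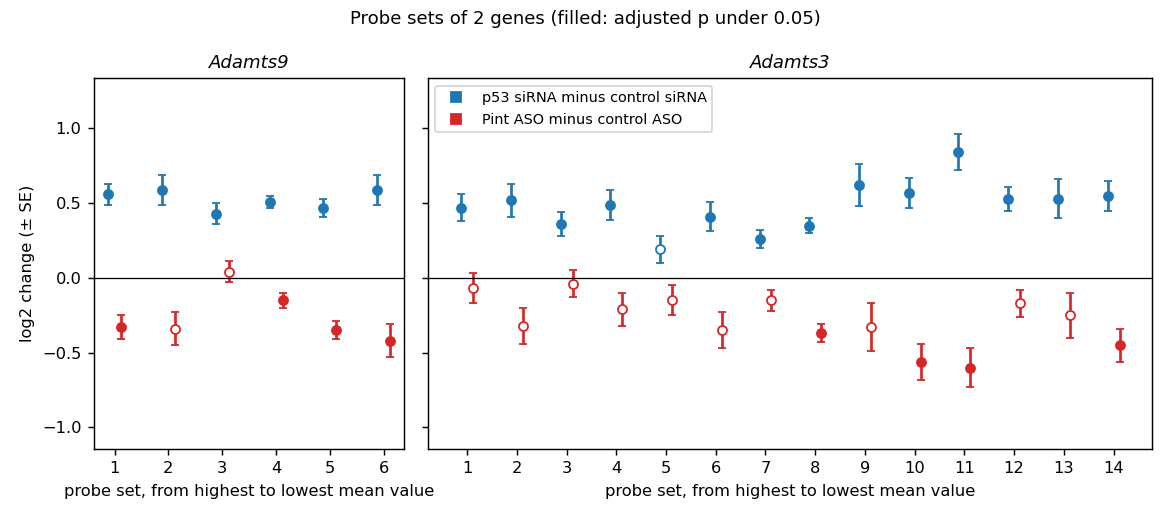
Log2 change with its standard error for each tested probe set of Adamts9 (6) and Adamts3 (14), ordered from the highest to the lowest mean value, with p53 siRNA (blue) and Pint ASO (red) against their own controls. Filled points passed the test: 6 and 13 probe sets were higher with p53 siRNA, and 4 of each gene were lower with Pint ASO.

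Of the remaining 9 ADAMTS enzymes, Adamts12, a protease of cartilage oligomeric matrix protein, moved in both knockdowns. It was 8.98, 8.87 and 8.85 with p53 siRNA beside 8.55, 8.57 and 8.63, a change of 0.32 ± 0.06 (adjusted p = 0.00494). With Pint ASO it was 8.03, 8.04 and 8.19 beside 8.59 and 8.52, a change of -0.47 ± 0.07 (adjusted p = 0.00125). Adamts10, linked to fibrillin microfibrils, fell by 0.28 ± 0.04 with Pint ASO (adjusted p = 0.002), and Adamts7, a close relative of Adamts12, fell by 0.22 ± 0.05 (adjusted p = 0.0193), a call lost when either control ASO array was left out (adjusted p up to 0.0883). Adamts6 was 9.69, 9.68 and 9.31 with Pint ASO beside 9.28 and 9.03. Its change of 0.41 ± 0.11 (adjusted p = 0.0349) lost its call in 9 of the 11 refits that each left out 1 array, all but those without control ASO 1 and Pint ASO 3 (adjusted p up to 0.204). Adamts13, Adamts16, Adamts17, Adamts18 and Adamts19 passed the test in neither knockdown, and for Adamts17 this held for all 4 probe sets tested.

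The ADAMTS-like proteins are matrix glycoproteins, several of which bind to fibrillin microfibrils. Adamtsl4 was 9.36, 9.40 and 9.38 with Pint ASO beside 10.14 and 10.29, a change of -0.83 ± 0.07 (adjusted p = 8.13e-05), or 56.1% of control. It was 10.03, 10.16 and 10.15 with p53 siRNA beside 10.23, 10.35 and 10.18 and did not pass the test there. Adamtsl1 was 8.39, 8.50 and 8.29 with p53 siRNA beside 7.91, 7.86 and 7.98 (change 0.48 ± 0.07, adjusted p = 0.000856), and its other probe set rose too. With Pint ASO it was 7.48, 7.35 and 7.47 beside 7.79 and 7.71 (change -0.31 ± 0.07, adjusted p = 0.0151), a call lost without control ASO 1 (adjusted p = 0.0978). The other probe set of Adamtsl1 did not pass with Pint ASO (change -0.24 ± 0.08, adjusted p = 0.0706). Adamtsl3 rose by 0.41 ± 0.05 with p53 siRNA (adjusted p = 0.000719). Adamtsl2 and Adamtsl5 passed the test in neither.

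The 3 tested inhibitors were bright on all arrays, and Timp3 was the one that moved most. Timp3, at chr10:86300412-86349505, was 12.63, 12.73 and 12.69 with Pint ASO beside 13.34 and 13.45 in control ASO, a change of -0.71 ± 0.05 (adjusted p = 4.14e-05), or 61.1% of control. With p53 siRNA it was 13.46, 13.47 and 13.47 beside 13.45, 13.39 and 13.42, a change of 0.05 ± 0.05 (adjusted p = 0.559). The difference between the effects was -0.76 ± 0.07 (adjusted p = 9.12e-05). Timp1 was 13.35, 13.48 and 13.25 with Pint ASO beside 13.51 and 13.50, lower in each array, but its change of -0.14 ± 0.06 did not pass the test (adjusted p = 0.155). With p53 siRNA Timp1 was 13.63, 13.64 and 13.64 beside 13.54, 13.51 and 13.52, a change of 0.12 ± 0.06 that did not pass either (adjusted p = 0.215). Leaving out Pint ASO 2 took the fall of Timp1 with Pint ASO past the threshold (adjusted p = 0.0284).

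**Figure D4:**
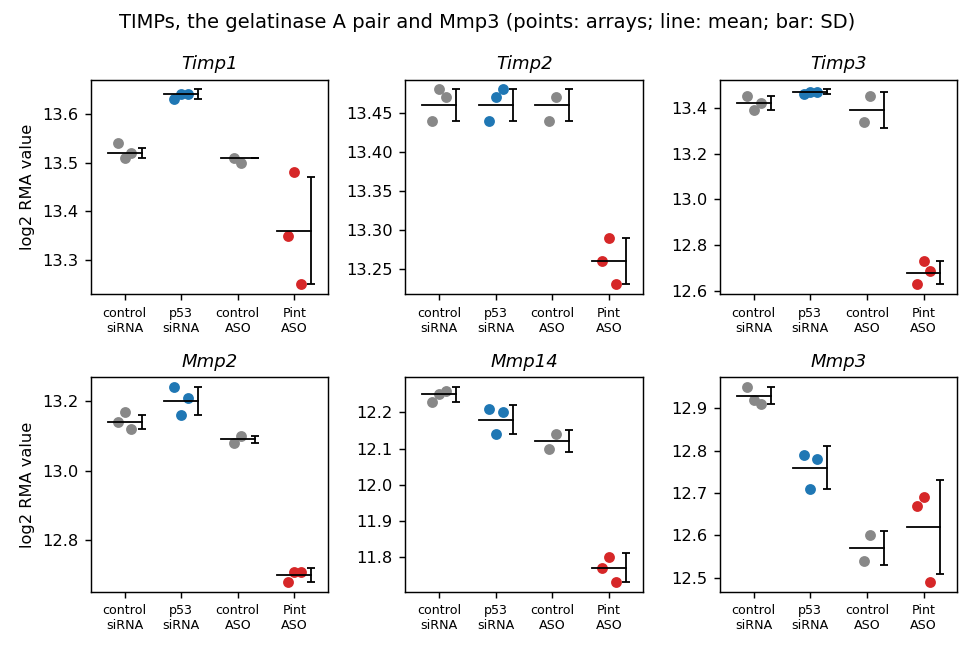
Log2 RMA values per array of Timp1, Timp2, Timp3, Mmp2, Mmp14 and Mmp3 in the 4 groups, with the group mean as a line and the SD as a bar. The Pint ASO arrays of Timp2, Timp3, Mmp2 and Mmp14 lie under every other array, and Mmp3 shows its highest values in control siRNA.

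Taken gene by gene, 8 of the 46 genes passed the test in both knockdowns, and all 8 moved in opposite directions. Mmp10 and Mmp13 fell with p53 siRNA and rose with Pint ASO, and Mmp16, Mmp19, Adamts4, Adamts9, Adamts12 and Adamtsl1 rose with p53 siRNA and fell with Pint ASO. Over all 16147 genes 1492 passed in both, of which 790 (52.9%) were opposite and 702 went the same way. The comparisons have no arrays in common. With each array centred on its median, 8 genes again passed in both, but Mmp19 was no longer among them and Adamtsl5, higher in both, was. No gene of these families passed in both with the same sign in the fit as reported. Passing in both depends on the threshold. Mmp28 (-0.22 and -0.19), Adamts6 (0.19 and 0.41), Adamts10 (-0.11 and -0.28) and Adamtsl5 (0.17 and 0.20) moved the same way with p53 siRNA and Pint ASO. Their groups overlapped in neither knockdown. Other genes that did not pass in both moved oppositely, such as Adamts1 (0.37 and -0.23) and Adamts5 (1.01 and -0.27).

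**Figure D5:**
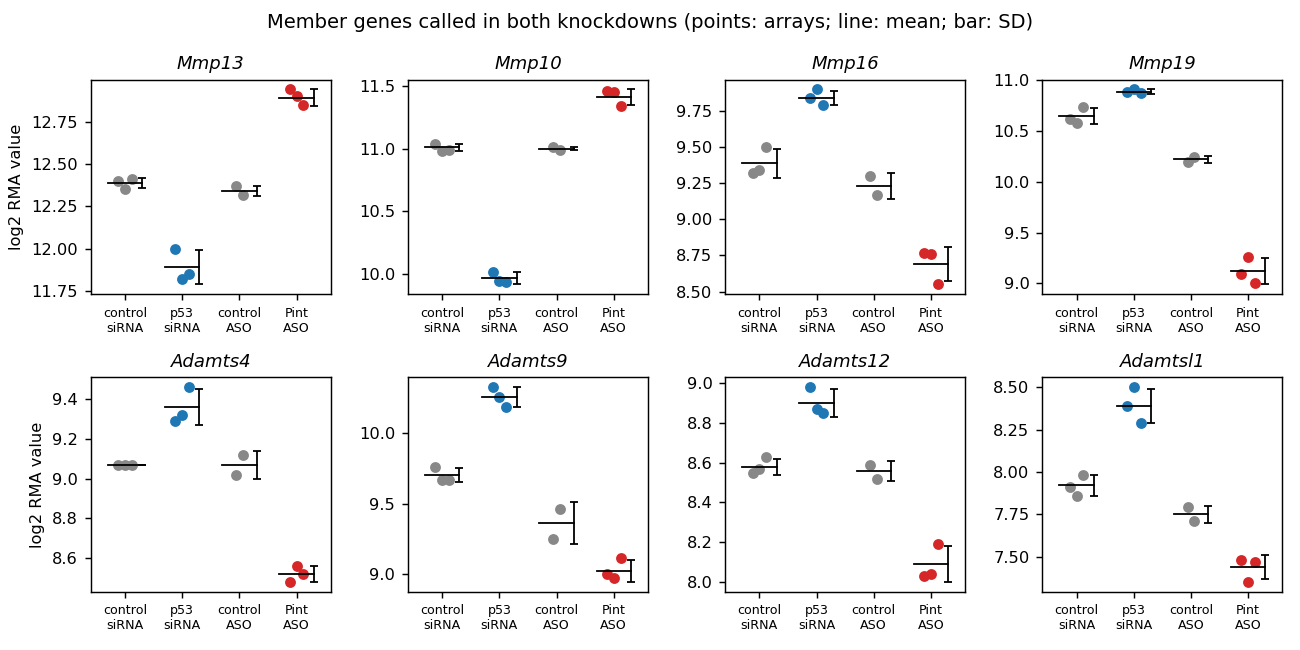
Log2 RMA values per array of the 8 genes that passed the test in both knockdowns, in the 4 groups, with the group mean as a line and the SD as a bar. Mmp13 and Mmp10 are lowest with p53 siRNA and highest with Pint ASO, and the other 6 are highest with p53 siRNA and lowest with Pint ASO.

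The difference of the effects was then tested gene by gene, as the change with Pint ASO minus that with p53 siRNA. It passed for 22 of the 46 genes, 5 positive (Mmp1a, Mmp9, Mmp10, Mmp13 and Mmp25) and 17 negative, against 24.1% of all genes (11.7% positive and 12.4% negative). Negative differences included those of Mmp23 (-0.60 ± 0.09, adjusted p = 0.00184), Adamts1 (-0.60 ± 0.10, adjusted p = 0.00238) and Adamtsl3 (-0.60 ± 0.08, adjusted p = 0.000888). Adamts5 differed by -1.28 ± 0.12 (adjusted p = 8.73e-05) and Timp3, Adamts4 and Adamts12 by -0.76, -0.84 and -0.78. Those of Mmp16, Adamts9, Adamtsl1, Adamtsl4, Mmp2 and Mmp14 were -1.0, -0.90, -0.79, -0.69, -0.45 and -0.29, with adjusted p from 0.000315 for Mmp16 to 0.011 for Mmp14. The calls of Mmp11 (adjusted p = 0.0469), Mmp25 (adjusted p = 0.0456) and Timp2 (adjusted p = 0.0441) were the closest to the threshold. They were lost in 10, 9 and 11 of the 11 refits that each left out 1 array. For Mmp11 the exception was the refit without Pint ASO 3, and for Mmp25 those without control ASO 2 and Pint ASO 2. Adamts3 (-0.54 ± 0.13, adjusted p = 0.0179) lost its call without control ASO 2 (adjusted p = 0.0788).

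Between the controls few genes passed the test, but most were slightly lower in control ASO. Of the 46 changes, 39 were negative and 7 positive, with a median of -0.06, and -0.002 over all genes. Control ASO minus control siRNA passed the test for Mmp3, Mmp19 and Adamts9 (6.52% of the 46), all 3 lower, against 4.81% of all genes (2.14% lower). Mmp3 lost its call when any of the 5 control arrays was left out (adjusted p up to 0.119), and Mmp19 without control siRNA 1 or 3 or either control ASO array (up to 0.111). The highest probe set of Adamts9 lost it in all refits but those without control ASO 2 or Pint ASO 3 (up to 0.232). All 6 probe sets of Adamts9 were lower in control ASO, with changes from -0.43 to -0.29. Of them 4 passed, the lowest adjusted p being 0.00348. For Mmp19 and Adamts9 the difference runs the same way as the change with Pint ASO against control ASO.

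Other genes of proteolysis at the cell surface were counted from a list of 43, of which 41 were tested. With p53 siRNA 4 rose and 5 fell (median 0.07), against 10.6% and 10.6% of all genes (median 0.023). With Pint ASO 6 rose and 16 fell (median -0.04), against 11.3% and 13.9% of all genes (median 0.012). Reck, a membrane-anchored inhibitor of Mmp2, Mmp9 and Mmp14, fell by 0.91 ± 0.07 with Pint ASO (adjusted p = 4.72e-05) and passed no test with p53 siRNA (change 0.09 ± 0.06, adjusted p = 0.401). Plat, tissue plasminogen activator, rose by 0.58 ± 0.06 with p53 siRNA (adjusted p = 0.000209) and fell by 1.02 ± 0.07 with Pint ASO (adjusted p = 3.41e-05). Plaur, the urokinase receptor, went the other way, with changes of -0.30 ± 0.05 (adjusted p = 0.00152) and 0.32 ± 0.05 (adjusted p = 0.00233). Plau, urokinase, fell by 0.45 ± 0.06 with p53 siRNA (adjusted p = 0.000688).

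Mme, the membrane protease neprilysin, rose by 0.59 ± 0.07 with p53 siRNA and fell by 1.06 ± 0.07 with Pint ASO. Tll1, a procollagen C-proteinase, had changes of -0.31 ± 0.09 and 0.95 ± 0.10, while Pcolce, the enhancer of that reaction, fell by 0.52 ± 0.06 with Pint ASO. Of the related genes on the list, Bmp1 changed by -0.22 ± 0.05 with Pint ASO (adjusted p = 0.0109). Tll2 changed by 0.29 ± 0.09 (adjusted p = 0.0425). Adam12 rose by 0.44 ± 0.07 in both knockdowns and Adam8 fell in both, by 0.44 ± 0.05 and 0.52 ± 0.06.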

How the data were processed

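RNA from p53-restored, doxorubicin-treated MEFs (300 ng per array) was hybridised to Affymetrix whole-transcript arrays, 11 in all. The study's main and supplementary methods name different array models. The authors deposited log2 intensities from RMA, which corrects background, normalizes arrays to each other and summarizes each probe set (its version is not given in the sources used here). Array medians lay between 7.31 and 7.38, and no pair of arrays held identical values. For arrays, their number limits the precision.

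From these values, probe sets above log2 6 in 2 or more arrays of any group were kept, 26038 of 34760. A single model of all arrays was fitted in limma 3.58.1 under R 4.3.3 (1 coefficient per group, empirical Bayes without trend), with contrasts for each knockdown against its own control, for the difference of these effects and between the controls. Genes were called at a p under 0.05 after Benjamini-Hochberg adjustment across every probe set kept. All tests were two-sided, and each error is a moderated standard error. The script was tested on simulated data. A gene with several probe sets is described by the one with the highest mean, which left 16147 genes. Genes were named from the platform annotation, which gives 1321 probe sets several symbols and 11799 none. None of these was used, so some genes of these families are not analysed here. Each of the 49 genes with a symbol is named. Values are given for the Timp genes tested, for genes called in any contrast, and for others that complete a role. Promoter windows and gene positions are from RefSeq (GRCm38.p6), with windows for 34 of the 49 genes. The genes, roles and lists were chosen with earlier results of these data known. The lists cover other cell-surface proteolysis, AP-1 and ETS factors, fibroblasts, epithelium, macrophages and blood, endothelium, smooth muscle, cartilage and bone, adipocytes and neural cells. Alternatives to the filter, normalization, variance model, call rule, replicate pairing, choice of probe set and arrays in the fit were tried.

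Replicate numbers were not used as pairs. Deviations from the group means of same-numbered siRNA arrays correlated at -0.284, -0.181 and -0.0371. For control ASO the replicate numbers in titles and descriptions disagree. Same-numbered ASO arrays correlated at -0.0463 and -0.42 by titles and at 0.42 and 0.375 by descriptions. These ASO values rest on 2 control arrays, so pairing in that arm was not settled.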

Additional observations from a re-analysis of the deposited data

How the results depend on the processing

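Counts of genes called stayed within 1.5 times their value under another filter, normalization, variance model and choice of probe set, except where named here, and no result changed sign past a threshold. With B over 3 (log odds of change) in place of the adjusted p, the count fell to 4 with p53 siRNA (Mmp10, Mmp13, Adamts5 and Adamts9), 6 with Pint ASO (Mmp2, Mmp13, Mmp19, Adamts4, Adamtsl4 and Timp3), 10 for the difference of the effects and 0 between the controls, and 1 gene, Mmp13, was opposite in both knockdowns. Of the 46 genes, 9 had an unadjusted p under 0.05 between the controls. Fitted on the ASO arrays alone, Pint ASO gave 11 calls, with fewer arrays behind the spread. The calls lost there were those of Mmp11, Mmp25, Adamts6, Adamts7, Adamts9, Adamts10, Adamtsl1 and Timp2 (adjusted p from 0.0546 for Adamts10 to 0.167 for Adamts6). With the replicate number as a block, by titles or by descriptions, calls between the controls fell to 0 and 0, and by titles 5 genes were opposite in both knockdowns. With p53 siRNA the block gave 12 calls under either numbering, and with Pint ASO 15 by titles and 19 by descriptions. Leaving out each array in turn gave 12 to 17 calls with p53 siRNA, 16 to 22 with Pint ASO, 17 to 20 for the difference, 0 to 3 between the controls and 6 to 10 opposite genes. Without 1 control ASO array, the remaining one is assumed to vary like the other groups. Over all results and settings 180 values lost and 31 gained a call against 3548 that kept their side of the threshold. The 3548 include genes that were called in no setting, so the 180 are a larger share of the calls than of all values. Among gained calls were Adamts1 and Adamts5 with Pint ASO under repeated quantile normalization and under an intensity trend.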

Other observations

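Of 4 tested markers of macrophages and blood, Cd68 fell with p53 siRNA by 1.04 ± 0.05 on the log2 scale (adjusted p = 1.41e-06) and with Pint ASO by 0.47 ± 0.05 (adjusted p = 0.000303). Of 5 tested smooth muscle markers, Cnn1 rose with p53 siRNA by 0.30 ± 0.05 and fell with Pint ASO by 0.40 ± 0.05, and Des fell in both, by 0.87 ± 0.06 and 0.35 ± 0.06. Of 4 tested endothelial markers, Kdr rose with Pint ASO by 0.77 ± 0.11 (adjusted p = 0.001) and Tek fell by 0.17 ± 0.05 (adjusted p = 0.0311). Of 5 tested epithelial markers, Krt18 fell with p53 siRNA by 0.20 ± 0.05 and Cdh1 with Pint ASO by 0.68 ± 0.07. Sox9 of cartilage, Pparg of adipocytes and Sox2 of neural cells passed the test with p53 siRNA (0.19 ± 0.05, 0.21 ± 0.05 and -0.66 ± 0.08), and none of the tested markers of these 3 cell types did with Pint ASO.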
